A study of Mus musculus with 80 samples.

Results

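Pyruvate dehydrogenase is switched off by kinases and on by phosphatases, and the transcripts of both were followed here in mouse liver through a fast. The set held 7 of the 78275 genes listed: the kinases Pdk1, Pdk2, Pdk3 and Pdk4, the phosphatase catalytic subunits Pdp1 and Pdp2, and Pdha1, which encodes the E1 alpha subunit that both kinds of enzyme act on. All 7 passed the filter on low counts, which left 21187 genes for testing. Pdk4 was chosen by its own response, because its fasted against control values differed by circadian time in these same libraries, so those values are given for Pdk4 as a description, without a test. The other 6, and the gene lists used below, were taken for their function, with earlier results of these data known.

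The pyruvate dehydrogenase complex sits in the mitochondrial matrix and turns pyruvate into acetyl-CoA, a step that animals cannot reverse. Phosphorylation of the E1 alpha subunit by a pyruvate dehydrogenase kinase stops the complex, and removal of the phosphate by a phosphatase restarts it. In the fed liver the complex feeds carbon from glucose towards oxidation and fat synthesis. In the fasted liver its inactivation spares pyruvate and lactate for glucose synthesis, and Pdk4 is well known as a kinase gene induced by starvation. Transcripts were measured here, not kinase activity or phosphorylation.

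The animals were C57BL/6J mice of 8 to 12 weeks, kept for 10 days in LD 12:12 and then moved to constant darkness. Control mice ate ad libitum, whereas fasted mice lost their food at CT10 (circadian time, in hours); livers of both treatments were sampled every 4 h between CT8 and CT44. Each combination of treatment and time had 4 livers, from males and females in equal number, which gave 80 libraries and 40 per treatment. The labels name no mutation, drug or transgene. At CT8 the mice of the fasted arm had not yet lost their food, so that time was a check between fed animals; the 9 later times, from 2 to 34 h without food, held 36 livers per treatment.

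The libraries held 25534901 to 59927771 counts in genes, with a median of 42303883. Groups were taken from the titles, from which the detailed labels departed for sex in 40 cases and for treatment in 40; sex-linked transcripts matched the titles in 80 of 80. In 1 library, control CT8 female 2, 31.3% of the counts fell in the ribosomal RNA gene Rn18s-rs5, against at most 4.88% in any other. Of the 5 hepatocyte markers 4 rose in fasted livers and 1 fell, with a summed level of 57099 to 103216 CPM in control livers and 70187 to 125589 in fasted ones. Of the 5 Kupffer cell markers 4 fell, and their sum ranged from 178 to 633 CPM in control and from 122 to 389 CPM in fasted livers. Likewise 4 of 5 cholangiocyte markers fell, with sums of 24.6 to 66.0 CPM against 6.78 to 50.3 CPM. Of 5 stellate cell markers 2 rose and 3 fell, and of 5 markers of sinusoidal endothelium 2 rose and 2 fell. Over all genes tested 29.5% rose and 32.9% fell by the same test. In whole liver fewer cells of a type and less RNA per cell cannot be told apart, and the part of these markers in the results on the 7 genes was not tested. Levels below are CPM, the counts of a gene relative to the TMM-scaled library total, and differences are log2 differences, fasted minus control, from edgeR's quasi-likelihood test unless another measure is named. The p-values were adjusted by Benjamini-Hochberg over all genes tested, and a gene was called at an adjusted p under 0.05.

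In the GENCODE M21 annotation of GRCm38, Pdk4 lies on the minus strand at chr6:5483351-5496309 and Pdp2 on the plus strand at chr8:104591451-104599026. Pdk1 lies at chr2:71873224-71903858 on the plus strand, and Pdk2 at chr11:95026258-95041354, Pdk3 at chrX:93764607-93832201, Pdp1 at chr4:11958184-11966452 and Pdha1 at chrX:160122209-160138413 lie on the minus strand. RefSeq promoter windows of 250 bases before to 50 bases after a start were given for 6 of the 7 genes, all but Pdp1, in 8 windows. Both strands were searched for the E-box CACGTG, the D-box (TTATGTAA or TTACGTAA), the FOXO motif GTAAACA, the ERR element TCAAGGTCA, the nuclear receptor half-site AGGTCA and the CRE TGACGTCA; every ERR element spelled this way also holds the half-site. Only 2 windows held a match, an E-box in each case: 219 bases before the start of Pdp2 and 126 bases before the first start of Pdk2. Of all 32851 promoter windows 7.15% held an E-box, 1.06% a D-box, 3.65% the FOXO motif, 0.423% the ERR element, 16.3% the half-site and 1.79% the CRE. The stretches from 250 to 51 bases before the start, which held no annotated exon of these genes, are given 5′ to 3′ on the gene's strand in GRCm38.p6 coordinates, with the E-box in capitals. Pdk4 and Pdp2 are shown because of the 7 genes their transcripts moved most with time in fasted livers. Pdk2 is shown because it was the most abundant kinase transcript of the fed liver per kilobase of exon.
Pdk4, chr6:5496329-5496528, minus strand: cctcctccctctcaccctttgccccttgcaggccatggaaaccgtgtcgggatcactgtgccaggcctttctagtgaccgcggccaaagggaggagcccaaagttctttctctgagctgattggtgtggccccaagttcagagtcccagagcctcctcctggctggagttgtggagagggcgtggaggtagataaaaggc
Pdp2, chr8:104591222-104591421, plus strand: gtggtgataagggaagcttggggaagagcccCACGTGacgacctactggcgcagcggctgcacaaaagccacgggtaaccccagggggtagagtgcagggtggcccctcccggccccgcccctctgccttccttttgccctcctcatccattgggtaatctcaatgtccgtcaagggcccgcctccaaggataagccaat
Pdk2, chr11:95041422-95041621, minus strand: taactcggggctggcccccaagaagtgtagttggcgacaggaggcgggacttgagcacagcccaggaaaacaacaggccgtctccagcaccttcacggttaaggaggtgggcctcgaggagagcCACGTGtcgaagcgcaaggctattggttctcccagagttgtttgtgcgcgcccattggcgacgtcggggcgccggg
None of the motifs searched was found in the Pdk4 window. A match here is a description of the letters and not a binding site.

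Pdk4, the starvation-induced kinase, had low and strongly time-dependent levels in control livers and reached far higher levels in fasted livers at some circadian times only. Averaged over the 9 times after food removal, its fasted minus control difference was 2.20 (SE 0.17). The difference ran from −0.29 at CT28 to 3.65 at CT40, and it was above 0 at 8 of the 9 times. The spread between livers of the same treatment, time and sex was wide, with a pooled SD of 0.78 on the log2 scale.

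Before food removal, at CT8, the control livers had 3.43 and 2.95 CPM of Pdk4 in males and 1.67 and 4.02 CPM in females. Those of the fasted arm had 4.73 and 3.01 CPM in males and 4.40 and 3.38 CPM in females, and the arms overlapped. At CT12, 2 h after food removal, control livers had 5.49 and 3.07 CPM in males and 9.07 and 4.88 CPM in females. Fasted males had 2.25 and 6.10 CPM and fasted females 26.0 and 20.9 CPM, so only the females lay above every control liver.

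At CT16, after 6 h, the control livers had 8.03, 18.2, 7.21 and 14.3 CPM of Pdk4, in the order male 1, male 2, female 1 and female 2 that is kept from here on. The fasted livers had 34.5, 23.9, 200.03 and 802 CPM, all above the control livers, with the females far above the males. This was the highest mean of the series, 265 ± 367 CPM (SD, n = 4) against 11.9 ± 5.24 CPM (SD, n = 4), a ratio of means of 22.2. On the log2 scale, where the highest female weighs less, the difference was 3.35 (SE 0.53).

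At CT20 the control livers had 18.6, 26.1, 20.2 and 33.3 CPM and the fasted livers 177, 141, 479.7 and 185 CPM. At CT24 the values were 24.6, 17.6, 23.6 and 25.4 CPM in control and 49.4, 29.1, 292 and 52.7 CPM in fasted livers. The treatments did not overlap at either time, but the gap narrowed at CT24, where fasted male 2 lay close to the highest control liver. The difference was 3.23 (SE 0.52) at CT20 and 1.86 (SE 0.49) at CT24. With female 1 of every group left out it was 0.98 at CT24.

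At CT28, after 18 h without food, control livers had 9.82, 13.9, 37.9 and 17.8 CPM of Pdk4 and fasted livers 20.1, 8.38, 13.6 and 17.3 CPM. At CT32 the control livers had 2.88, 3.84, 5.30 and 4.05 CPM and the fasted livers 4.46, 5.72, 8.82 and 6.16 CPM. The treatments thus overlapped at both times, with differences of −0.29 (SE 0.49) and 0.64 (SE 0.53), although these mice had been without food for longer than those at CT16 and CT20; the sign at CT28 turned, to 0.10 and 0.11, without male 2 and without female 1. The lowest fasted mean after food removal, 6.29 CPM, fell at CT32, the same time as the lowest control mean of those times, 4.02 CPM.

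At CT36 the control livers had 2.44, 3.21, 6.12 and 6.21 CPM and the fasted livers 15.3, 19.2, 127 and 11.0 CPM. At CT40 control livers had 6.502, 11.7, 14.98 and 16.3 CPM and fasted livers 121, 74.8, 88.2 and 373 CPM. At CT44, the last time, the values were 21.3, 22.3, 18.1 and 31.7 CPM in control and 190.0, 328, 333 and 204 CPM in fasted livers. Every fasted liver lay above every control liver of its time at CT36, CT40 and CT44, and the differences were 3.05 (SE 0.53), 3.65 (SE 0.53) and 3.50 (SE 0.52). At CT36 the ratio of means, 9.58, leaned on female 1; with female 1 of every group left out, the log2 difference there was 1.72.

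**Figure D1:**
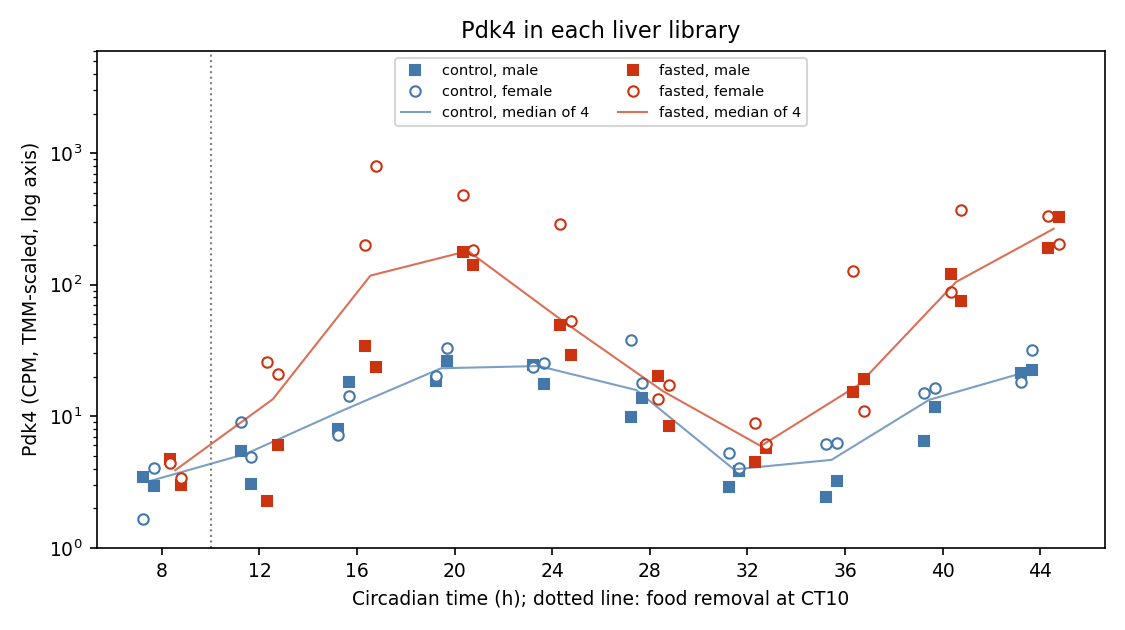
Pdk4 level of each of the 80 libraries, in TMM-scaled CPM on a log axis, against circadian time in hours; squares are males, circles females, blue control and red fasted, lines join the medians of 4 and the dotted line marks food removal. The fasted points stand above all control points of their own time from CT16 to CT24 and again from CT36 to CT44. At CT28 and CT32 the treatments overlap.

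Counted by liver, 18 of the 36 fasted livers had more Pdk4 than the highest control liver of the same times, at 37.9 CPM; these were 7 of 18 males and 11 of 18 females. Counted by time, the fasted livers did not overlap with the control livers at 6 of the 9 times. The share of all genes without such overlap was not counted, here or for the other 6 genes below. A swing over the day was present in both treatments. In control livers the means ran from 4.02 CPM at CT32 to 24.6 CPM at CT20, a ratio of 6.11, and in fasted livers from 6.29 CPM at CT32 to 265 CPM at CT16, a ratio of 42.2. That CT16 mean leaned on female 2, at 802 CPM; by medians of 4 livers the highest fasted level was 266 CPM at CT44, against 117 CPM at CT16. A 24 h cosine put the peak-to-trough size at 2.92 in control livers, with a peak at CT22.2, and at 5.35 in fasted livers, with a peak at CT19.4. In fasted livers circadian time and hours without food rise together and cannot be told apart.

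The other 6 genes moved far less. For the mean difference over the 9 times, 5 of 6 were called, 3 higher and 2 lower in fasted livers, against 62.5% of all genes tested (29.5% higher and 32.9% lower), so that a call was the usual outcome for any gene. The median difference of the 6 was 0.04, against −0.03 over all genes. Before food removal none of the 6 was called at CT8, where 1.33% of all genes were. The CT8 differences of Pdk2 (0.24, SE 0.10), Pdp2 (0.34, SE 0.18) and Pdp1 (−0.37, SE 0.25) were nevertheless close to or larger than their mean differences. Those of Pdk1 (−0.008, SE 0.26) and Pdha1 (−0.06, SE 0.10) were small, and that of Pdk3 was −1.74 (SE 0.49). Both arms were fed at that time, and the part of such differences in the means was not tested. Over the 9 times after food removal there were 54 tests on the 6 genes, of which 11 were called, 9 higher and 2 lower. The share of all genes called was 1.6% at CT12, 23.4% at CT16, 36.6% at CT20, 24.1% at CT24, 21% at CT28, 17.7% at CT32, 26.8% at CT36, 39.9% at CT40 and 39.4% at CT44. Of the 6 genes the number called was 1 at CT12, CT16, CT20, CT28, CT32 and CT44, none at CT24, 2 at CT36 and 3 at CT40.

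**Figure D2:**
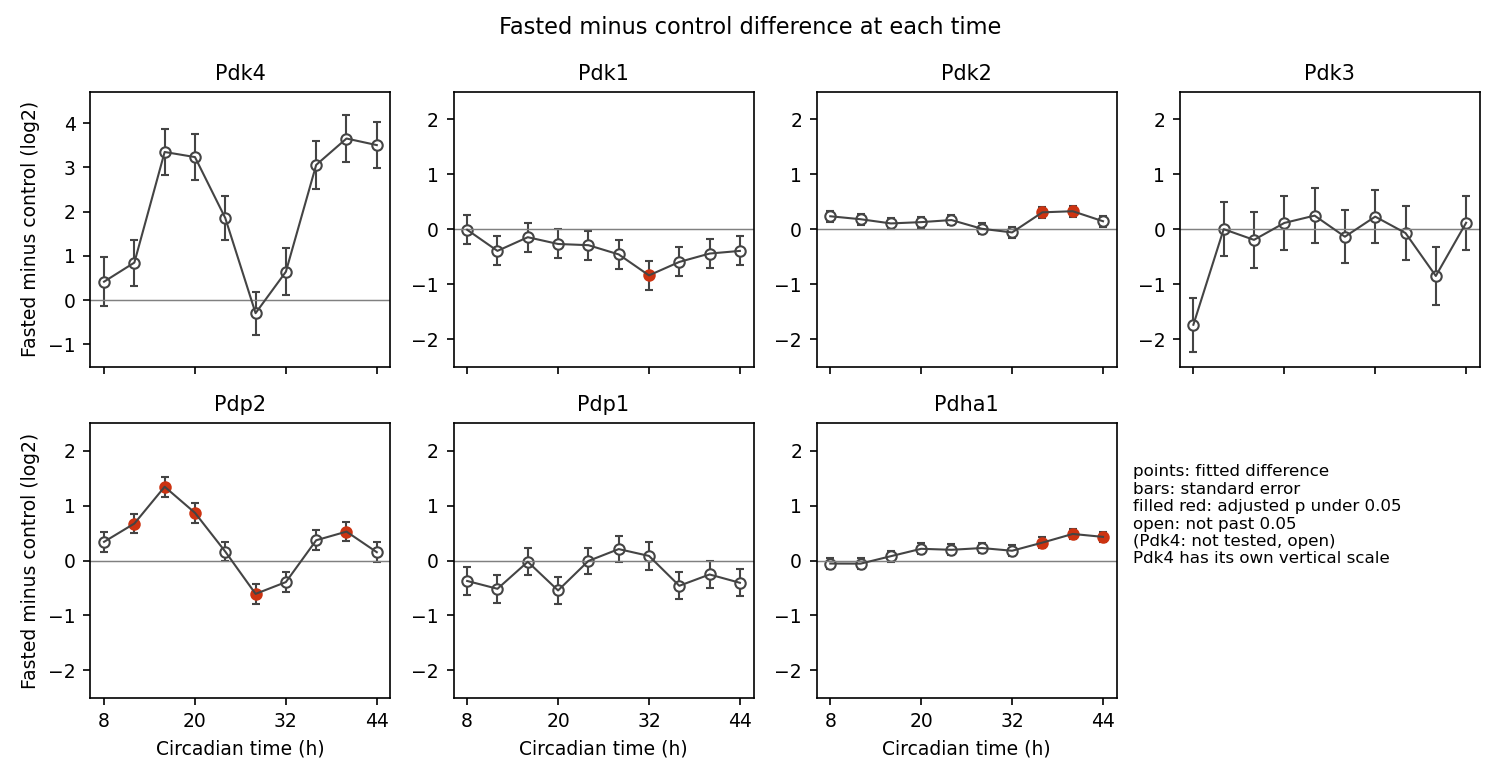
Fitted fasted minus control log2 difference of each gene (vertical axis) against circadian time in hours, with bars of 1 standard error; red points passed an adjusted p of 0.05, and Pdk4, on its own vertical scale, was not tested. Pdk4 and Pdp2 follow a wave over time, Pdha1 drifts upwards to 0.48 at CT40, and Pdk1 stays at or below 0.

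Among the kinases, Pdk2 was the most abundant one of the fed liver per kilobase of exon and is regarded as the widely expressed form. Without division by length Pdk1 and Pdk2 were close, with medians of 112 and 111 CPM over all control livers, CT8 included. Pdk2 levels ran from 79.1 to 148 CPM in control and from 85.0 to 159 CPM in fasted livers after food removal. The treatments overlapped at all 9 times. Fasted livers had 0.15 more (SE 0.033, adjusted p = 0.000124) on the log2 scale. The difference was called at CT36 (0.31, SE 0.10, adjusted p = 0.0161) and CT40 (0.33, SE 0.10, adjusted p = 0.00628). At CT40 the control livers had 118, 114, 88.4 and 102 CPM and the fasted livers 137, 148, 137 and 107 CPM, so that 3 fasted livers lay above all control ones. Of 15 alternatives the CT36 call was lost in 7 and the CT40 call in 5. Both were lost in the libraries of the time alone (adjusted p = 0.0604 and adjusted p = 0.0609) and without sex in the model (adjusted p = 0.139 and adjusted p = 0.0705). With a replicate left out the difference was 0.19 to 0.43 at CT36, lowest without female 2. At CT40 it was 0.19 to 0.48, lowest without female 1. In females alone the mean difference was 0.09 (adjusted p = 0.186).

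Pdk1, a kinase known as a target of hypoxia signalling, fell. Its control levels ran from 44.2 to 227 CPM and its fasted levels from 39.9 to 197 CPM, with a mean difference of −0.42 (SE 0.088, adjusted p = 4.76e-05). It was below 0 at 9 of 9 times and called at CT32 alone (−0.84, SE 0.27, adjusted p = 0.022). There the control livers had 122, 103, 145 and 177 CPM and the fasted livers 73.7, 72.3, 75.5 and 80.1 CPM, without overlap. At CT24, likewise without overlap, the control livers had 82.1, 83.5, 112 and 90.9 CPM and the fasted livers 75.7, 75.9, 75.1 and 73.2 CPM. The CT32 call was lost without male 1 (adjusted p = 0.234) or male 2 (adjusted p = 0.181). No dependence of the Pdk1 difference on time was called (adjusted p = 0.846).

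Pdk3, the kinase of the set with the fewest counts, was close to the limit of this depth, with a median of 17.5 counts per library. Its levels lay between 0.0254 and 0.863 CPM after food removal, and the treatments overlapped at all 9 times. The mean difference was −0.06 (SE 0.17, 95% interval −0.39 to 0.28, adjusted p = 0.804), and changes inside that interval were not detectable at this depth. At CT8, before food removal, it was −1.74 (SE 0.49, adjusted p = 0.0619). The control livers there had 0.230, 0.682, 0.989 and 3.03 CPM, the last from the library rich in ribosomal RNA, and the fasted arm 0.235, 0.190, 0.598 and 0.142 CPM.

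The phosphatases parted from each other. Pdp2, the catalytic subunit known as the insulin-sensitive form, followed a wave in fasted livers. Its mean difference was 0.34 (SE 0.059, adjusted p = 2.26e-06), and this mean joined differences of both signs. The differences depended on time, spanning 1.95 from the lowest to the highest (adjusted p = 1.07e-06). Time dependence was called for 2 of the 6 genes, Pdp2 and Pdha1, against 33.7% of all genes tested.

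At CT12 the control livers had 44.7, 42.2, 41.6 and 40.1 CPM of Pdp2 and the fasted livers 51.0, 51.8, 95.1 and 80.3 CPM. At CT16 the control livers had 38.8, 49.5, 39.6 and 40.4 CPM and the fasted livers 80.8, 84.4, 110.2 and 165 CPM. At CT20 they had 41.7, 46.7, 34.8 and 45.6 CPM in control and 96.9, 81.9, 66.7 and 65.7 CPM in the fasted treatment. All 4 fasted livers were above all control livers at each of these times, with differences of 0.67 (SE 0.18, adjusted p = 0.0366), 1.34 (SE 0.18, adjusted p = 2.25e-07) and 0.87 (SE 0.18, adjusted p = 0.000126). At CT16 the mean was 110.1 ± 38.9 CPM (SD, n = 4) against 42.1 ± 5.02 CPM (SD, n = 4).

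At CT28 the direction was the opposite. The control livers had 57.5, 54.9, 53.0 and 34.4 CPM of Pdp2 and the fasted livers 40.8, 52.2, 24.6 and 20.9 CPM, a difference of −0.61 (SE 0.18, adjusted p = 0.011), with overlap through control female 2. Neither this call nor that at CT12 held without male 1 (adjusted p = 0.268 and adjusted p = 0.385) or without male 2 (adjusted p = 0.103 and adjusted p = 0.578). At CT40 the fasted livers had 80.8, 65.2, 77.3 and 28.9 CPM against 43.5, 46.7, 40.5 and 42.6 CPM, a difference of 0.53 (SE 0.18, adjusted p = 0.0159). That call leaned on single animals: fasted female 2, at 28.9 CPM, lay below every control liver, and the difference was 0.83 without female 2 and 0.08 without female 1 (adjusted p = 0.702).

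**Figure D3:**
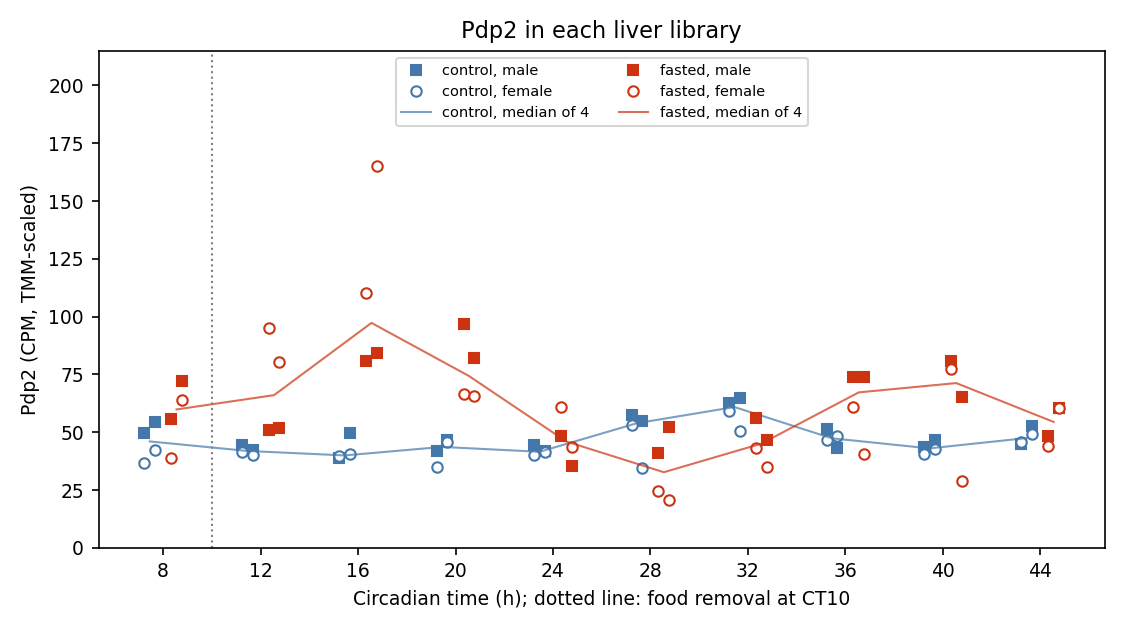
Pdp2 level of each library, in TMM-scaled CPM on a linear axis, against circadian time in hours; squares are males, circles females, blue control and red fasted, lines join the medians of 4 and the dotted line marks food removal. The fasted points stand above the control points at CT12, CT16 and CT20, reaching 165 CPM, and mostly below them at CT28.

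The 24 h component was tested in each treatment. In control livers 3 of the 6 genes were called, against 41.8% of all genes tested there: Pdk1 with a peak-to-trough size of 0.64 and a peak at CT12.4 (adjusted p = 0.0166), Pdk2 with 0.32 and CT10.4 (adjusted p = 0.0101), and Pdp2 with 0.25 and CT6.29 (adjusted p = 0.0281). In fasted livers 4 of the 6 were called, against 47.1%: Pdk1 with 0.56 and CT14.8 (adjusted p = 0.0106), Pdk2 with 0.47 and CT11.8 (adjusted p = 9.17e-05), Pdha1 with 0.19 and CT14.9 (adjusted p = 0.0276), and Pdp2 with 1.19 and CT16.1 (adjusted p = 6.18e-05). The rhythm itself differed between treatments for 1 of the 6 genes, against 23.2% of all genes tested. That gene was Pdp2, with a peak-to-trough size of the difference of 1.47 (adjusted p = 2.69e-06). In control livers none of these calls held without female 1 (adjusted p = 0.0834 to 0.131), and the Pdha1 call in fasted livers was lost with any 1 replicate left out (adjusted p = 0.0525 to 0.118). The Pdk1 call in fasted livers was lost without male 1 (adjusted p = 0.0641), without male 2 (adjusted p = 0.0845) and in females alone (adjusted p = 0.325), and the Pdk2 call there in females alone (adjusted p = 0.0696). Pdk1 and Pdk2, whose control levels peaked roughly opposite to the fitted Pdk4 peak, had no called difference between rhythms (adjusted p = 0.346 and adjusted p = 0.312).

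Pdp1, the other phosphatase, known as the calcium-activated form of muscle, was scarce, with a median of 50.5 counts per library. Its levels ran from 0.646 to 2.42 CPM in control and from 0.445 to 2.02 CPM in fasted livers after food removal, and the treatments overlapped at all 9 times. The mean difference was −0.21 (SE 0.082, adjusted p = 0.0218), and no single time was called. The call was lost without male 1 (−0.19, adjusted p = 0.181), without male 2 (−0.26, adjusted p = 0.0558) and without female 1 (−0.15, adjusted p = 0.18).

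Pdha1, the phosphorylated subunit, rose late in the fast. Its mean difference was 0.23 (SE 0.032, adjusted p = 3.22e-08), and it was called at CT36 (0.33, SE 0.097, adjusted p = 0.01), CT40 (0.48, SE 0.097, adjusted p = 7.91e-05) and CT44 (0.43, SE 0.097, adjusted p = 0.000395). At CT36 the control livers had 111, 126, 129.7 and 143 CPM and the fasted livers 170.4, 158, 158 and 152 CPM. At CT40 the control livers had 113, 128, 121 and 131 CPM and the fasted livers 171, 164, 160.1 and 194 CPM. At CT44 they had 126, 133, 126 and 113 CPM in control and 169, 160.1, 169.8 and 171 CPM in fasted livers. No fasted liver overlapped with a control liver at these 3 times, but the CT36 call was lost without male 1 (adjusted p = 0.287) or male 2 (adjusted p = 0.0756) and the CT44 call without male 1 (adjusted p = 0.0511). The dependence on time passed the threshold (span 0.54, adjusted p = 0.0331). It did not pass without male 1, male 2 or female 2, where the span was 0.56, 0.53 and 0.39. Over all genes, too, fewer were called for time dependence with any replicate left out. Pdha1 shares 603 bases of exon with Map3k15 on the opposite strand, which had a median of 63.5 counts. Its testis paralogue Pdha2 had 0 counts in every library.

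Levels in CPM do not compare genes of unequal length, so the kinases were compared per kilobase of exon. Over the 36 control livers from CT12 to CT44 the mean levels were 34.7 ± 5.61 CPM per kb for Pdk2, 15.3 ± 5.50 for Pdk1, 4.08 ± 2.73 for Pdk4 and 0.177 ± 0.0744 for Pdk3 (SD, n = 36). In fasted livers they were 38.6 ± 6.92 for Pdk2, 35.5 ± 48.5 for Pdk4, 11.2 ± 3.57 for Pdk1 and 0.169 ± 0.0698 for Pdk3 in CPM per kb (SD, n = 36). In control livers the order of the time means was Pdk2, Pdk1, Pdk4 and Pdk3 at all 10 times. The place of Pdk2 before Pdk1 there rested on the division by length, as their medians in CPM were close. In fasted livers Pdk4 came first at CT16, CT20, CT40 and CT44 and second at CT24 and CT36. These places of means leaned on single livers: Pdk4 exceeded Pdk2 in 4 of 4 fasted livers at CT20 and CT44, but in 2 of 4, both females, at CT16 and in 1 of 4, female 2, at CT40, and at CT36 it exceeded Pdk1 in female 1 only.

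Within single livers Pdk2 exceeded Pdk1 per kilobase in 36 of 36 of each treatment. These neighbours in the order thus did not overlap within a liver. Pdk1 exceeded Pdk4 in 36 of 36 control livers but in 17 of 36 fasted ones. Pdk4 exceeded Pdk2 in none of the 36 control livers and in 12 of 36 fasted ones. Of the summed kinase transcripts per kb, Pdk4 made up 7.80% ± 5.19 in control livers (range 1.29% to 17.3%) and 29.8% ± 25.9 in fasted livers (range 0.976% to 83.6%; SD, n = 36). At CT20 the share was 13.7% ± 1.16 against 57.4% ± 13.3, and at CT44 11.7% ± 1.98 against 59.1% ± 8.22 (SD, n = 4). At CT28 it was 10.8% ± 5.65 in control and 8.81% ± 3.09 in fasted livers (SD, n = 4). These shares include the Pdk4 values that chose it and are a description.

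**Figure D4:**
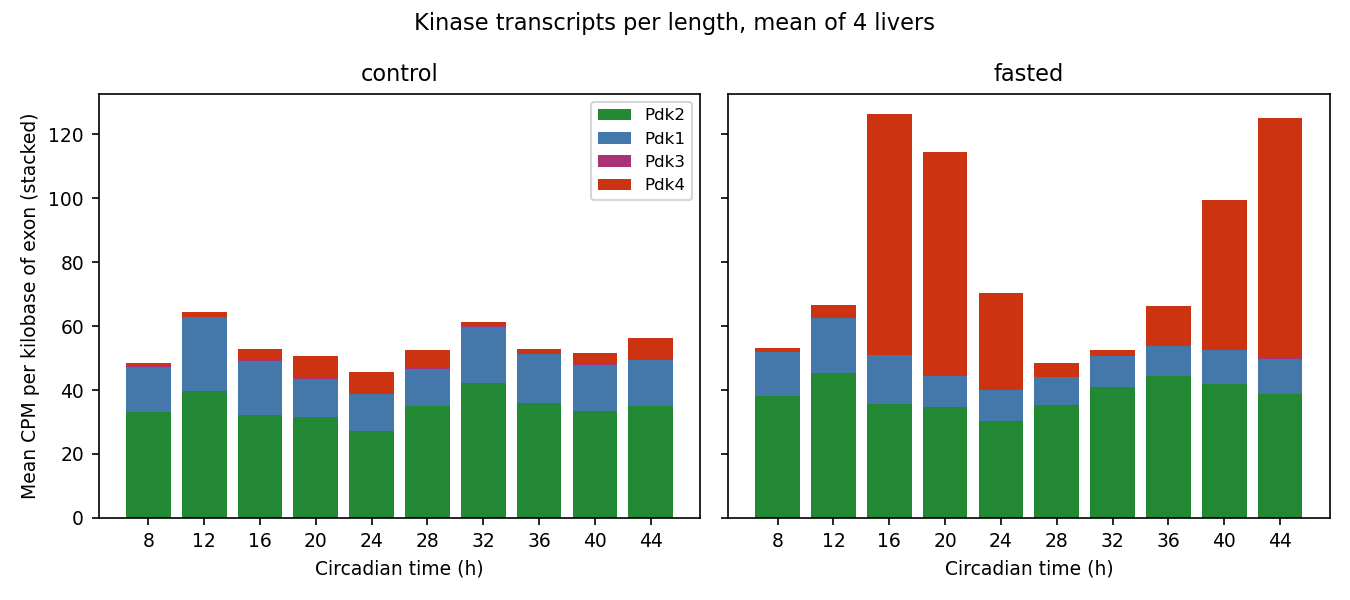
Stacked mean level of the kinase transcripts, in CPM per kilobase of exon, against circadian time in hours; each bar is the mean of 4 livers, control on the left and fasted on the right. The Pdk2 and Pdk1 parts change far less between panels than the Pdk4 part, which makes up 57.4% at CT20 and 59.1% at CT44 in fasted livers on the average of single livers.

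The phosphatases and the substrate had an equally uneven makeup. Pdp2 had 8.12 ± 1.25 CPM per kb in control and 11.0 ± 4.81 in fasted livers, and Pdp1 0.306 ± 0.102 and 0.262 ± 0.0829 CPM per kb (SD, n = 36). Pdp2 exceeded Pdp1 in 36 of 36 livers of each treatment. Pdha1 had 34.0 ± 3.59 CPM per kb in control and 39.9 ± 4.64 in fasted livers (SD, n = 36). The per-length level of the substrate was thus close to that of Pdk2, whereas the mean levels of both phosphatases together stayed below that of Pdk2 on this scale.

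The sexes were compared in the same libraries by contrasts other than the one that chose Pdk4, the difference between treatments by time. The same Pdk4 values enter both, so its p-values for sex are not fully separate from its choice. Over the 9 times the mean level of Pdk4 was 12.2 ± 8.25 CPM in control males and 16.5 ± 10.6 CPM in control females. In fasted mice it was 69.4 ± 88.8 CPM in males and 180.0 ± 213 CPM in females (SD, n = 18). Fasted females exceeded fasted males by 1.53 on the log2 scale (SE 0.23, adjusted p = 9.05e-07), with the higher female mean at 9 of 9 times. In control livers over all 10 times the female minus male difference was 0.44 (SE 0.23, 95% interval −0.01 to 0.90, adjusted p = 0.119).

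The fasting effect on Pdk4 was itself larger in females, by 1.01 (SE 0.33, adjusted p = 0.0364). Of all genes tested 12.4% were called for such a sex difference, and of the 7 genes Pdk4 was the 1 called. The excess was unevenly placed over the times. At CT12 the difference was 1.80 in females and −0.15 in males, and at CT16 it was 5.30 in females and 1.24 in males, in mean log2 CPM. From CT32 to CT44 the sexes lay within 0.09 of each other. The female excess held at 6 of 9 times, and the difference at single times, from 2 mice per sex and treatment, was not tested for Pdk4. The call was lost in limma-voom (0.83, adjusted p = 0.178) and with fewer mice: without female 1 the sex difference was 0.52 (adjusted p = 0.204), without male 1 it was 1.21 (adjusted p = 0.22) and without male 2 it was 0.85 (adjusted p = 0.388).

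**Figure D5:**
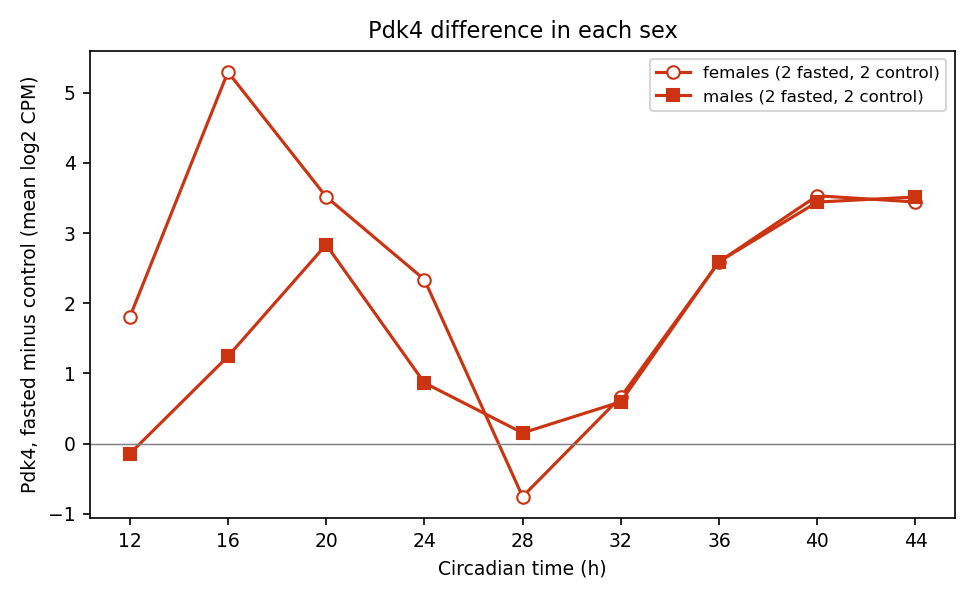
Fasted minus control difference of Pdk4 in mean log2 CPM (vertical axis) against circadian time in hours, for females (circles) and males (squares), each from 2 fasted and 2 control livers. The female line lies above the male line up to CT24, with 5.30 against 1.24 at CT16, lies below it at CT28, and joins it from CT32 on.

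Sex differences in level were also called among the other genes, and Pdk2, Pdk3 and Pdp1 were called in both treatments. With so few genes these counts do not set the genes apart from the shares over all genes. In control livers 4 of the 7 genes were called, against 39.2% of all genes tested. Pdk1 (0.52, SE 0.12, adjusted p = 0.000365), Pdk3 (0.83, SE 0.22, adjusted p = 0.0019) and Pdp1 (0.57, SE 0.11, adjusted p = 3.32e-05) were higher in females, and Pdk2 (−0.20, SE 0.044, adjusted p = 0.000327) was lower. In fasted livers 4 of the 7 were called, against 38%. Beside Pdk4 these were Pdk3 (0.73, SE 0.24, adjusted p = 0.0133), Pdp1 (0.44, SE 0.12, adjusted p = 0.00284) and Pdk2 (−0.28, SE 0.047, adjusted p = 5.92e-06). Pdk1, at 0.14 (SE 0.12, adjusted p = 0.404), was not called there; its fasting effect was lower in females by 0.36 (SE 0.18), but that difference did not pass (adjusted p = 0.181). Pdk3 lost its call in control livers without female 2 (0.63, adjusted p = 0.0778) and in fasted livers without male 1 (0.74, adjusted p = 0.0551), without female 1 (0.71, adjusted p = 0.0666) or without female 2 (0.66, adjusted p = 0.089). Pdp1 lost its call in fasted livers without female 2 (0.26, adjusted p = 0.133), and Pdk2 in control livers without male 1 (−0.17, adjusted p = 0.0551).

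The surrounding pathway was followed in 19 further genes of pyruvate use, of which 16 were called for the mean difference, 11 higher and 5 lower, with a median of 0.15, against 62.5% of all genes tested (29.5% higher and 32.9% lower) and a median of −0.03. In the complex itself the changes were small: Pdhb, the E1 beta subunit, fell by 0.12 (SE 0.041, adjusted p = 0.00883), and Dlat, the E2 core, fell by 0.09 (SE 0.040, adjusted p = 0.039). Dld, the E3 enzyme, rose by 0.09 (SE 0.024, adjusted p = 0.000694), and Pdhx, the E3-binding protein, rose by 0.15 (SE 0.031, adjusted p = 4.35e-05). Pdpr, the regulatory subunit of the phosphatase, rose by 0.43 (SE 0.025, adjusted p = 1.58e-19).

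The 4 genes of the list with the largest mean difference were an enzyme of glycolysis, one of glucose synthesis, a lactate dehydrogenase subunit and a transporter. Pklr, the liver pyruvate kinase that makes pyruvate in glycolysis, fell by 1.89 (SE 0.15, adjusted p = 1.67e-15), and Pck1, which commits pyruvate-derived carbon to glucose synthesis, rose by 1.80 (SE 0.085, adjusted p = 5.37e-23). Ldha, a lactate dehydrogenase subunit, rose by 0.85 (SE 0.062, adjusted p = 2.57e-16), and the monocarboxylate transporter Slc16a7 rose by 0.80 (SE 0.044, adjusted p = 1.76e-20). In the sister system for branched-chain keto acids the kinase Bckdk had −0.05 (SE 0.044, adjusted p = 0.381), and the phosphatase Ppm1k rose by 0.67 (SE 0.057, adjusted p = 3.27e-14). Time dependence of the difference was called for 9 of the 19, against 33.7% of all genes tested.

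Of 8 genes for factors known to act on Pdk4 transcription 7 were called for the mean difference, 5 higher and 2 lower, against the same 62.5% of all genes tested. Among the nuclear receptors Ppara, the fatty acid receptor of liver, rose by 0.64 (SE 0.075, adjusted p = 3.53e-10), Esrra rose by 0.34 (SE 0.038, adjusted p = 1.74e-10) and Rxra, the dimer partner of Ppara, rose by 0.14 (SE 0.027, adjusted p = 1.27e-05). Ppard fell by 1.14 (SE 0.058, adjusted p = 8.22e-22), and the glucocorticoid receptor gene Nr3c1 fell by 0.46 (SE 0.028, adjusted p = 3.38e-19). The coactivator Ppargc1a rose by 1.73 (SE 0.12, adjusted p = 1.29e-17) and Foxo1, an insulin-restrained factor, rose by 0.76 (SE 0.045, adjusted p = 2.11e-19), whereas Foxo3 had 0.11 (SE 0.053, adjusted p = 0.0611). The difference depended on time for 7 of the 8, Rxra being the exception, against 33.7% of all genes tested.

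By Pearson correlation over the 20 group means of log2 CPM, the genes most like Pdk4 among 11575 genes were Cyp4f17 (r = 0.96), Urml (r = 0.94), Ubr4 (r = 0.94), Hilpda (r = 0.94) and Wapl (r = 0.94). Cyp4f17 belongs to the cytochrome P450 family of fatty acid hydroxylases and Hilpda encodes a lipid droplet protein; Ubr4 is a ubiquitin ligase and Wapl a cohesin release factor. The 20 points share treatment and time, so the correlations are a description. The swing of these genes was far smaller than that of Pdk4: Cyp4f17 went from 18.3 ± 2.58 to 45.8 ± 7.52 CPM at CT16 and from 18.4 ± 3.08 to 24.6 ± 4.48 CPM at CT28, control to fasted (SD, n = 4). Pdk3 and Pdp1 were too scarce to be ranked; of the other 4 genes of the set Pdha1 was the most like Pdk4 (r = 0.56), ahead of Pdp2 (r = 0.43), Pdk2 (r = −0.11) and Pdk1 (r = −0.45).

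Skeletal muscle and fat also express Pdk4, so the markers of both tissues were read in the same libraries. Of 5 muscle markers 4 had a median count of 0, and their summed level was 0.274 to 0.799 CPM in control and 0.110 to 0.916 CPM in fasted livers. Of 5 adipocyte markers 3 had a median count of 0, with sums of 0 to 2.60 CPM in control and 0.0222 to 2.28 CPM in fasted livers. In the 5 fasted livers with the most Pdk4 the muscle sum was 0.110 to 0.514 CPM and the adipocyte sum 0.0737 to 0.257 CPM.

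Use of exon bins, the parts into which the exons of a gene are divided, was compared between treatments after food removal. Of the 6 tested genes Pdk1 alone was called (adjusted p = 0.00821), against 14.7% of genes tested. Within it 1 bin of 25 was called, against 2.13% of all bins tested: the last of its bins held 7.20% ± 1.09 of the Pdk1 counts in control and 5.88% ± 1.40 in fasted livers (SD, n = 36), a relative log2 difference of −0.22 (adjusted p = 0.00294). The call of this bin was lost without male 1 and without male 2. With a replicate left out its relative difference was −0.23 to −0.19. No gene of the set was called without male 1, without male 2 or without female 1. The same held without CT40, where 3 exon columns did not match the gene counts. In Pdk4 the 15 bins had relative differences between −0.14 and 0.11, so that its bins rose nearly together.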

How the data were processed

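Poly(A) RNA of 80 livers was sequenced as stranded paired reads. The authors deposited raw counts per gene and raw counts per exon bin, not normalised; per the labels, the processing named Trimmomatic, HISAT2, DESeq2 and the build GRCm39, without versions, and the counting program is not given in the sources used here. A normalised table deposited by the authors was not used. Of the 80 exon columns 77 matched the gene table; 3 columns, all of fasted CT40, did not, and 8.28% to 25.9% of counts fell in rows that name no bin.

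Gene counts were fitted with edgeR 4.0.16 in R 4.3.3 (TMM scaling, filterByExpr, trended dispersion, quasi-likelihood F test), with 1 mean per treatment, time and sex. Mean effects, the sex difference in the fasting effect and the sex difference in fasted livers covered CT12 to CT44. Rhythms were 24 h cosines with sex as a term, and with a linear trend in fasted livers. Exon bins used diffSpliceDGE. Alternatives used limma 3.58.1, DESeq2 1.42.0, other scalings, filters and subsets. Members and lists were chosen with earlier results of these data known. Named were all 7 members, 4 genes of the pyruvate list with the largest mean effect, its subunits and the branched-chain kinase and phosphatase, 8 factors, and the 5 genes most correlated with Pdk4. Each library was 1 mouse, and counting error is the only error that depth sets; positions come from GRCm38, which is older than the counts' annotation. The scripts were tested on simulated data.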

Additional observations from a re-analysis of the deposited data

Results flagged for a closer look

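Within each treatment and time the 4 livers were searched for a value far from the other 3 by Dixon's ratio on log2 CPM, and 7 of the 140 groups held one; chance flags about 1 in 20. Pdk1 at fasted CT16 was 81.1 CPM in male 1, against 124 to 135 CPM in the others. Pdk3 at fasted CT44 was 0.162 CPM in male 1, against 0.475 to 0.559 CPM. Pdp1 at fasted CT16 was 1.18 CPM in female 1, against 1.45 to 1.505 CPM. Pdp2 at control CT16 was 49.5 CPM in male 2, against 38.8 to 40.4 CPM, and at control CT28 it was 34.4 CPM in female 2, against 53.0 to 57.5 CPM. Pdha1 at fasted CT28 was 123 CPM in female 2, against 141 to 144 CPM, and at fasted CT44 it was 160.1 CPM in male 2, against 169 to 171 CPM. None of these was a Pdk4 value, although Pdk4 had the widest spread between livers.

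In 4 cases an effect differed between groups by a test of the difference itself, edgeR's quasi-likelihood test with Benjamini-Hochberg adjustment. The fasting effect on Pdk4 was larger in females by 1.01 on the log2 scale (adjusted p = 0.0364), in libraries that also chose Pdk4. The fasting effect differed between times for Pdp2, with a span of 1.95 (adjusted p = 1.07e-06), and for Pdha1, with a span of 0.54 (adjusted p = 0.0331). The rhythm of Pdp2 differed between control and fasted livers, with a peak-to-trough size of the difference of 1.47 (adjusted p = 2.69e-06). Of all genes tested 12.4% were called for the sex difference, 33.7% for time dependence and 23.2% for the difference between rhythms. The Pdk4 call was lost in 6 of 13 alternatives and the Pdha1 call in 9 of 15. The Pdp2 calls held in all 15 for time dependence and all 13 for the rhythm.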

How the results depend on the processing

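For Pdp2, the time dependence, the fasted rhythm, the difference between rhythms and the calls at CT16 and CT20 kept direction and call in all alternatives run, and Pdk4 stayed higher in fasted females in all 12. The mean difference of Pdk4 was 1.70 to 2.71. Among 951 values of single genes 818 kept call and direction, 96 lost the call, 18 gained it, 7 moved and 12 reversed. The number of genes called for the mean difference was 3 in females alone (4 to 5 with any replicate left out); of the 54 tests of a gene at a time, 18 were called without a filter, 6 without sex and 5 at an adjusted p under 0.01 (3 to 14). For time dependence the number of genes called was 1 in males alone, females alone, without CT12, with a replicate block and at 0.01 (1 to 2). For the sex difference in the fasting effect it was 2 without a filter and 0 in limma-voom, with a replicate block and at 0.01 (0 to 1); without a filter the adjusted p of Pdk4 was 4.77e-39, and the cause was not tested. With a replicate left out it was 3 to 7 for sex in control and 2 to 4 for sex in fasted livers. For the control rhythm it was 0 at 0.01 (0 to 3), for the fasted rhythm 1 in females alone and 2 at 0.01 (2 to 3), and for the difference between rhythms 2 without a filter. At CT8 it was 1 without a filter, in DESeq2 and without sex (0 to 3). Exon usage called 2 genes in limma diffSplice and 0 without CT40 (0 to 2). Spearman correlation shared 3 of the 5 genes most like Pdk4.

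Reversed signs belonged to differences near 0 or to Pdk4 in subsets. The mean difference of Pdk3 ran from −0.097 to 0.058 with a replicate left out. The sex difference in the fasting effect reversed in limma-voom for Pdk3 (−0.027) and Pdp2 (−0.0061), and for Pdp2 with a replicate block (−0.0101); with a replicate left out it was −0.21 to 0.12 for Pdk3, −0.13 to 0.10 for Pdp2 and −0.0061 to 0.14 for Pdha1. In males alone Pdk4 was −0.053 at CT12 and 0.26 at CT28, and at CT28 it was −0.79 to 0.11 with a replicate left out, an alternative chosen after seeing the data. Leaving out a replicate leaves 1 liver of its sex in a group, assumed to vary like the rest, beside 2 of the other sex. Without a male replicate fewer genes were called over all genes in every test. A call lost in this way therefore does not by itself show that a result rested on that mouse. Same-numbered livers deviated together, at r over 0.1, in 1 of 18 pairs (median 0.00055), so the numbers do not pair the mice; the block changed no other call. Pdk3 and Pdp1 are limited by counts.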
